A study of Mus musculus with 4 samples.

Results

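The D cyclins, their kinase partners and the inhibitors that act on them were examined as a group of 10 genes chosen by name: Ccnd1, Ccnd2, Ccnd3, Cdk4, Cdk6, Cdkn1b, Cdkn1c, Cdkn2a, Cdkn2c and Cdkn2d. All 10 were among the 24391 genes of the count table. 8 of them passed the filter on low counts and were tested, each with at least 79 reads in every library, and Cdkn1c and Cdkn2a did not pass it. RNA-Seq had been performed in Beko cells, a mouse leukemia line of progenitor T-cells in which Notch signaling is constitutively active. In the GSI group, 2 libraries were made from cells kept for 48 h in DAPT, a γ-secretase inhibitor (GSI) that blocks the release of the active Notch intracellular domain. In the washout group, 2 libraries were made from cells that had the same 48 h in DAPT, were then washed, and were cultured for a further 24 h without the inhibitor. The comparison asks which transcripts move when Notch signaling is allowed to return. Both groups had received DAPT, at a dose that the labels give as 10 mg/ml and the methods in micrograms per ml. By the methods, the inhibitor was washed away and renewed at 24 h within the 48 h. No library of cells that were washed after the 48 h and then kept in the inhibitor was analysed here. The return of Notch signaling and the final wash with its longer culture therefore cannot be told apart.

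D cyclins bind CDK4 or CDK6 early in G1, and the resulting kinases phosphorylate the retinoblastoma family of pocket proteins, which releases E2F factors and opens the way to cyclin E, CDK2 and DNA replication. The INK4 inhibitors (the products of Cdkn2a, Cdkn2b, Cdkn2c and Cdkn2d) bind CDK4 and CDK6 and keep cyclin D away. The CIP/KIP inhibitors (the products of Cdkn1a, Cdkn1b and Cdkn1c) inhibit cyclin E-CDK2 complexes and are themselves held by cyclin D complexes. In the thymus, cyclin D3 and CDK6 are known for their part in the expansion of immature T-cells, and Notch signaling is one of the inputs that drives that expansion.

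The reads counted on genes came to 13716199 to 36364200 per library, and replicate 1 was the deeper library in both groups. Levels are given as CPM, the counts per 1000000 counts of the library total after TMM scaling. The correlation of log2 CPM was 0.990 for the GSI pair, 0.988 for the washout pair and 0.935 to 0.947 for pairs from different groups. The sources used here do not say that the replicates came from separate cultures, so the p-values measure the spread between these libraries. In RNA from a whole culture, fewer cells carrying a transcript and less of it per cell cannot be told apart.

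Upon washout, the transcripts of all 3 D cyclins went down while those of both kinases went up, and the inhibitors were divided. Cdk6 was higher and Ccnd1 and Ccnd2 were lower at an edgeR adjusted p-value below the threshold of 0.05 together with a log2 fold change beyond 1 in either direction. By this rule 1 of the 8 members tested was higher, where 7.74% of all 12266 genes tested were, and 2 were lower, where 11.7% of all genes were. With the adjusted p-value alone, 3 members were higher (Cdk4, Cdk6 and Cdkn2c), where 27% of all genes were, and 5 were lower (Ccnd1, Ccnd2, Ccnd3, Cdkn1b and Cdkn2d), where 25.4% of all genes were. In none of the 8 did the values of the GSI and the washout libraries overlap, which was also the case for 77.3% of all genes tested. The median log2 fold change of the 8 was -0.70, against -0.01 over all genes tested.

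**Figure D1:**
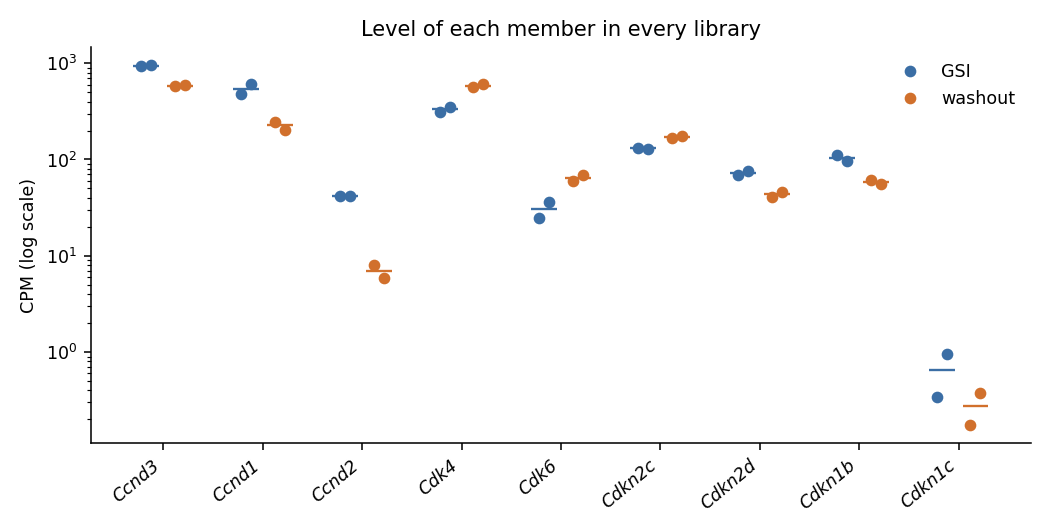
Level of 9 of the 10 genes in each library, in CPM on a log axis, with GSI libraries in blue, washout libraries in orange and a short line at the mean of each pair (n = 2). The washout points lie below the GSI points for the 3 D cyclins, Cdkn1b and Cdkn2d and above them for Cdk4, Cdk6 and Cdkn2c, and Cdkn2a, which is listed at 0 in every library, could not be drawn on this axis.

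Ccnd2, which encodes cyclin D2, showed the largest change of the 8. This gene lies on the minus strand of mm9 at chr6:127075797-127101066. Its level was 41.3 and 41.6 CPM in the GSI libraries and 8.05 and 5.88 CPM in the washout libraries, from 1321, 607, 274 and 79 reads. Both washout libraries lay far below the GSI pair, whose values were nearly equal. Ccnd2 was 5.81-fold lower upon washout, a log2 fold change of -2.54 (SE 0.17, edgeR adjusted p = 0.000334), which ranked 251 of 12266 genes by the size of the change. It was the member still called when the test asked for a change larger than a log2 fold change of 1 (glmTreat in edgeR).

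Ccnd1, which encodes cyclin D1 (minus strand, chr7:152115836-152125774), was measured at 478 and 605 CPM in GSI and at 247 and 204 CPM in washout. The GSI libraries differed more from each other than those of Ccnd2 did, yet the lower of them was still well above the higher washout library. Ccnd1 was 2.40-fold lower upon washout, with a log2 fold change of -1.26 (SE 0.16, edgeR adjusted p = 0.00138). Against a minimum log2 fold change of 1 it was no longer called (glmTreat adjusted p = 0.195).

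Ccnd3, which encodes cyclin D3 (plus strand, chr17:47642000-47736632), was the D cyclin with the highest level. It stood at 925 and 950 CPM in GSI and at 577 and 595 CPM in washout. Both pairs were tight and well apart. Ccnd3 was 1.60-fold lower, with a log2 fold change of -0.68 (SE 0.11, edgeR adjusted p = 0.00354), so that it passed the adjusted p-value and not the fold threshold. The change was smaller when GC content and exon length were corrected for, at a log2 fold change of -0.37 (edgeR adjusted p = 0.0103).

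The annotated span of Ccnd3 overlaps Bysl on the other strand, and that of Ccnd1 overlaps Oraov1. That of Ccnd2 overlaps 9330179D12Rik and that of Cdk6 overlaps Gm17590, both also on the other strand. 9330179D12Rik had 5 and 5 reads in GSI and 3 and 0 reads in washout and was not tested. The strand setting of the read counting is not given in the sources used here, so reads from the overlaps could have been set to either gene or dropped. Neither Bysl nor Oraov1 passed the test. Bysl had a log2 fold change of -0.23 (edgeR adjusted p = 0.0903), and Oraov1 had one of -0.32 (edgeR adjusted p = 0.152).

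Set against exon length, the D cyclins kept their order in every library: Ccnd3 above Ccnd1 above Ccnd2. Ccnd3 stood at 410 and 421 CPM per kb of exon in GSI and at 256 and 264 in washout. Ccnd1 stood at 125 and 158 and at 64.4 and 53.3, and Ccnd2 at 7.24 and 7.30 and at 1.41 and 1.03 CPM per kb. The steps between these genes were larger than the differences between replicates at each position of the order.

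The falls were unequal in size, and the makeup of the D cyclin transcripts shifted toward Ccnd3. Ccnd3 made up 73.8 ± 2.7% (SD, n = 2) of the summed D cyclin level per kb in GSI and 81.2 ± 2.4% (SD, n = 2) in washout. The share of Ccnd1 was 25.0 ± 2.8% (SD, n = 2) in GSI and 18.4 ± 2.3% (SD, n = 2) in washout. The share of Ccnd2 went from 1.29 ± 0.06% (SD, n = 2) to 0.381 ± 0.081% (SD, n = 2). For each of the 3 genes the shares of the groups did not overlap, and no test was made of them because an exact permutation test on 2 against 2 libraries allows no two-sided p below 0.333.

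**Figure D2:**
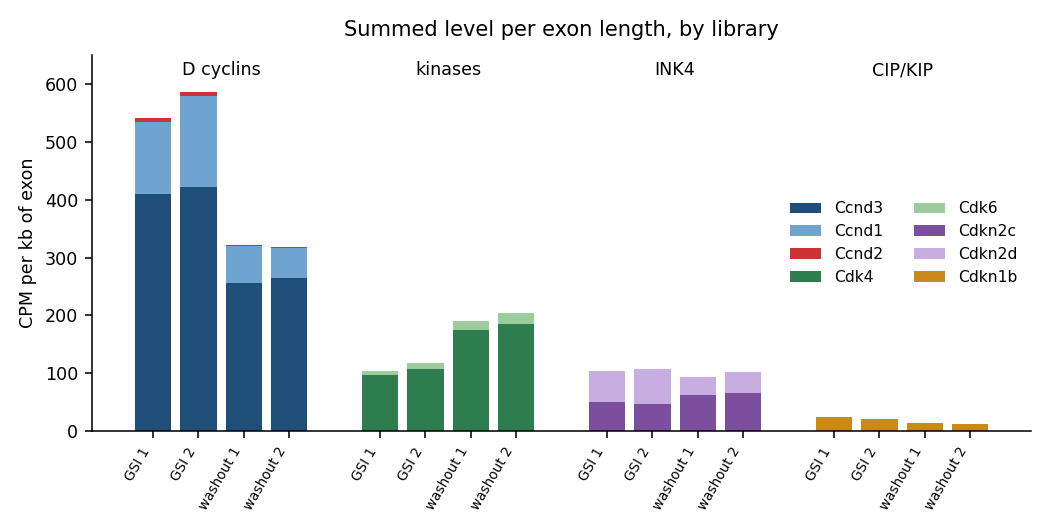
Summed level in CPM per kb of annotated exon for the D cyclins, the kinases, the INK4 inhibitors and Cdkn1b, with 1 bar per library and the genes stacked. The D cyclin bars stand at 542 and 586 in GSI and at 322 and 318 in washout, the kinase bars at 104 and 117 and at 190 and 205, and the INK4 bars lie between 94.4 and 107.

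The kinases moved the other way. Cdk4 (plus strand, chr10:126500590-126504976) encodes the catalytic partner shared by all D cyclins. Its level was 315 and 350 CPM in GSI and 566 and 604 CPM in washout. Both washout libraries were above both GSI libraries by more than either pair was spread. The log2 fold change was 0.82 (SE 0.11, edgeR adjusted p = 0.00188). The annotated gene overlaps Tspan31 on the other strand, which was lower upon washout with a log2 fold change of -0.63 (edgeR adjusted p = 0.00534).

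Cdk6 (plus strand, chr5:3343893-3523218) encodes the second of these kinases, the one that predominates in many blood cells. It was measured at 24.9 and 36.1 CPM in GSI and at 59.8 and 69.2 CPM in washout. The GSI pair was widely spread for its level and still did not reach the washout pair. The log2 fold change was 1.09 (SE 0.19, edgeR adjusted p = 0.00423). Cdk6 lay close to the fold threshold: leaving out GSI replicate 1 gave a log2 fold change of 0.83, leaving out washout replicate 2 gave 0.99, and scaling to the total count alone gave 0.89. Each was below 1, with an adjusted p-value that still passed, at 0.0114, 0.00307 and 0.00813. Per kb of exon, the level of Cdk4 was 14.5 and 11.1 times that of Cdk6 in GSI and 10.9 and 10.0 times in washout, so that Cdk4 was the more abundant kinase transcript in every library.

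5 of the 7 annotated introns of Cdk6 are longer than 3000 bases, the longest intron the authors' alignment allowed, and the longest of them spans 46081 bases. Reads that cross such introns could not be aligned across them. The same holds for 1 intron of Ccnd1, 2 of Ccnd2, 2 of Ccnd3 and 1 of Cdkn2c, and for none of Cdk4, Cdkn1b, Cdkn1c and Cdkn2d. It also holds for 2 introns of Cdkn2a, the longest of 17348 bases, and for 1 of Cdkn2b. The part of this limit in the levels per kb, in the changes and in the zero counts of Cdkn2a was not tested.

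RefSeq promoter windows, which run from 250 bases before to 50 bases after a transcript start, were at hand for 7 of the 10 genes, in 10 windows. They were searched on both strands for the letters of 4 motifs, chosen after the changes of the genes were known: CACGTG, the E-box bound by MYC and MAX; TGGGAA, the core bound by RBPJ, the DNA-binding factor of the Notch pathway; TTCCCGC or TTGGCGC, bound by E2F factors; and GTAAACA, bound by FOXO factors. CACGTG occurred in a window of each of the 3 genes that were higher upon washout and in no window of Ccnd3, Cdkn1b or Cdkn2d, the 3 lower genes that had a window. Of all 32851 windows of this length, 7.15% held CACGTG. The window of Cdk4 held it 4 times, at 172, 118, 98 and 11 bases before the start, and 4 or more matches were present in 8 of all windows (0.0244%). The cutoff of 4 is the count of the Cdk4 window itself, so this share is a description and not a test. The 3 windows with CACGTG are printed here to show where these letters lie, followed by that of Cdkn1b, which held none of the 4 motifs. They are on the gene's strand, 5′ to 3′, in GRCm38.p6, a later build than the mm9 of the counts, and the letters of any of the 4 motifs are in capitals.
Cdk4 (plus strand, chr10:127063285-127063584): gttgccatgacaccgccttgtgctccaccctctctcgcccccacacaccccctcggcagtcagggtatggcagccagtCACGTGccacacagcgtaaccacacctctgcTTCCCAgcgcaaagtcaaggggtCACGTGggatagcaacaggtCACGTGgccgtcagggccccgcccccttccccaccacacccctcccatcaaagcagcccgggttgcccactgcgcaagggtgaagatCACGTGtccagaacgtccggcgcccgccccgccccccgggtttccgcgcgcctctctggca
Cdk6 (plus strand, chr5:3343643-3343942): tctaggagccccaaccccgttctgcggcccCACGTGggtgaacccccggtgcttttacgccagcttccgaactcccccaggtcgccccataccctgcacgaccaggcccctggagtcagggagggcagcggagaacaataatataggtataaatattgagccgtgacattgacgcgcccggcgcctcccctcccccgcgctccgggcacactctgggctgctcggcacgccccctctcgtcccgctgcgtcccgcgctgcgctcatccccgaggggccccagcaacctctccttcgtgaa
Cdkn2c, second window (minus strand, chr4:109665323-109665622): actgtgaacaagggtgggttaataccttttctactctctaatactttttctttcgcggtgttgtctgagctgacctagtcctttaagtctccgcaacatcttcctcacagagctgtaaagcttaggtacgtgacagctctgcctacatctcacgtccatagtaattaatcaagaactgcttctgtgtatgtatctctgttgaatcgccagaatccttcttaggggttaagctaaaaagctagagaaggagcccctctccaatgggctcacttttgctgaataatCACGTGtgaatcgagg
Cdkn1b (plus strand, chr6:134920151-134920450): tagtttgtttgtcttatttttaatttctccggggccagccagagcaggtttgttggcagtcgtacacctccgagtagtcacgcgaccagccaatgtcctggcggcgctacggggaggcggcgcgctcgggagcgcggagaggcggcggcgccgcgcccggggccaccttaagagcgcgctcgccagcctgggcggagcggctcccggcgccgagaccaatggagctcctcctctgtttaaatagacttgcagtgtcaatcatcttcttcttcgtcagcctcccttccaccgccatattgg

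In the window of Cdk6 the E-box letters begin 220 bases before the start, and in that of Cdkn2c they begin at base 35 of the transcript. The first window of Cdkn2c held E2F letters instead, 25 bases before its start, and 6.81% of all windows held a match to either E2F word. The letters TTCCCA in the Cdk4 window, 141 bases before the start, are TGGGAA on the other strand, and Cdkn2d had the same match 209 bases before its start. The first window of Cdkn2a, a gene listed at 0 in every library, held TGGGAA 107 bases and E2F letters 98 bases before its start. TGGGAA is short and was present in 25.6% of all windows. A window of Ccnd3 held GTAAACA on the other strand 243 bases before its start, where 3.65% of all windows held these letters. Ccnd1, Ccnd2 and Cdkn1c are named without a window. These matches describe the letters in the windows, and binding was not measured here.

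Of the CIP/KIP inhibitors, Cdkn1b, which encodes p27Kip1 (plus strand, chr6:134870419-134875531), was lower upon washout. It stood at 112 and 95.5 CPM in GSI and at 61.6 and 56.0 CPM in washout. The lower GSI library was well above the higher washout library. Cdkn1b was 1.76-fold lower, with a log2 fold change of -0.82 (SE 0.12, edgeR adjusted p = 0.00201).

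Cdkn1c, which encodes p57Kip2 (minus strand, chr7:150644255-150646955), was close to the limit of these libraries, with 11 and 14 reads in GSI and 6 and 5 reads in washout. These come to 0.344 and 0.960 CPM and to 0.176 and 0.372 CPM, so that the groups overlapped. A count of 3 reads corresponds to 0.0881 to 0.223 CPM. The gene was left out of the test by the filter on low counts, and no change was detectable at this depth.

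Cdkn1a, which encodes p21Cip1 and is the remaining CIP/KIP gene, was not one of the 10 but showed a change of the same size as Ccnd2. It was at 118 and 124 CPM in GSI and at 22.2 and 18.5 CPM in washout. Cdkn1a was 5.90-fold lower, with a log2 fold change of -2.56 (SE 0.12, edgeR adjusted p = 0.000281). Across the 4 libraries it was also the gene whose pattern was most like that of Ccnd2, by the Euclidean distance of centered log2 CPM (0.139) among 9287 genes whose average log2 CPM was 3 or more. The next genes in that order were Rasgrp1 at a distance of 0.194 and Lpar6 at 0.195. For Cdk6, the gene with the largest rise, the nearest were Polq at 0.0412, BC030867 at 0.0729 and Acat2 at 0.107. With 4 libraries in 2 groups, likeness mostly states that genes share the size of the difference.

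The INK4 inhibitors that were expressed went in opposite directions. Cdkn2c, which encodes p18Ink4c (minus strand, chr4:109333481-109339794), stood at 133 and 127 CPM in GSI and at 167 and 177 CPM in washout. The pairs were tight and did not overlap. The log2 fold change was 0.40 (SE 0.09, edgeR adjusted p = 0.0130), the smallest of the 8. The call was lost with total count scaling, at a log2 fold change of 0.20 (adjusted p = 0.113), and without GSI replicate 1 (0.43, adjusted p = 0.0649) or GSI replicate 2 (0.37, adjusted p = 0.0959), whereas the fit with an offset for GC content and length gave 0.68 (adjusted p = 0.000532).

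Cdkn2d, which encodes p19Ink4d (minus strand, chr9:21092907-21095653), was measured at 69.0 and 75.5 CPM in GSI and at 41.1 and 46.4 CPM in washout. Here the washout libraries were the lower pair, again with no overlap. Cdkn2d was 1.65-fold lower, with a log2 fold change of -0.73 (SE 0.11, edgeR adjusted p = 0.00249). The ratio of Cdkn2c to Cdkn2d per kb of exon was 0.912 and 0.799 in GSI and 1.92 and 1.81 in washout. By this measure Cdkn2d stood above Cdkn2c in both GSI libraries and below it in both washout libraries. That order depends on the annotated exon lengths, 2686 bases for Cdkn2c and 1271 for Cdkn2d. In CPM, Cdkn2c was above Cdkn2d in every library.

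Cdkn2a, which encodes p16Ink4a and the unrelated p19Arf (minus strand, chr4:88920377-88940557), was listed at 0 reads in all 4 libraries. A count of 0 allows up to 3 reads, which is 0.0938 and 0.206 CPM in the GSI libraries and 0.0881 and 0.223 CPM in the washout libraries. Intervals of this kind cover counting error only, and not reads lost across introns too long for the alignment. Cdkn2b, the neighboring INK4 gene that encodes p15Ink4b, had 1 read in GSI replicate 2 and 0 reads elsewhere. No fold change was computed for either gene.

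Summed per kb of exon, the D cyclins stood at 564 ± 31 (SD, n = 2) in GSI and at 320 ± 2.5 (SD, n = 2) in washout, while Cdk4 and Cdk6 together went from 110 ± 9.7 (SD, n = 2) to 197 ± 10 (SD, n = 2). The D cyclin transcripts thus stood at 5.23 and 5.00 times those of the kinases in the GSI libraries and at 1.69 and 1.56 times in the washout libraries. The summed INK4 level was 105 ± 2.2 (SD, n = 2) in GSI and 98.3 ± 5.6 (SD, n = 2) in washout, with values of 104 and 107 against 94.4 and 102, a difference close to the spread within the washout pair. The kinases therefore stood at 0.998 and 1.10 times the INK4 transcripts in GSI and at 2.02 and 2.00 times in washout. The size of these ratios depends on the exon lengths used. Each length joins the exons of all annotated transcripts of a gene, 3249 bases for Cdk4, and can exceed that of the transcript in the cells. By the methods, reads were counted on an iGenomes annotation, whose gene models can differ from those of GENCODE vM1 that gave the lengths. These ratios compare transcripts, since protein was not measured here, and they were given no test.

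**Figure D3:**
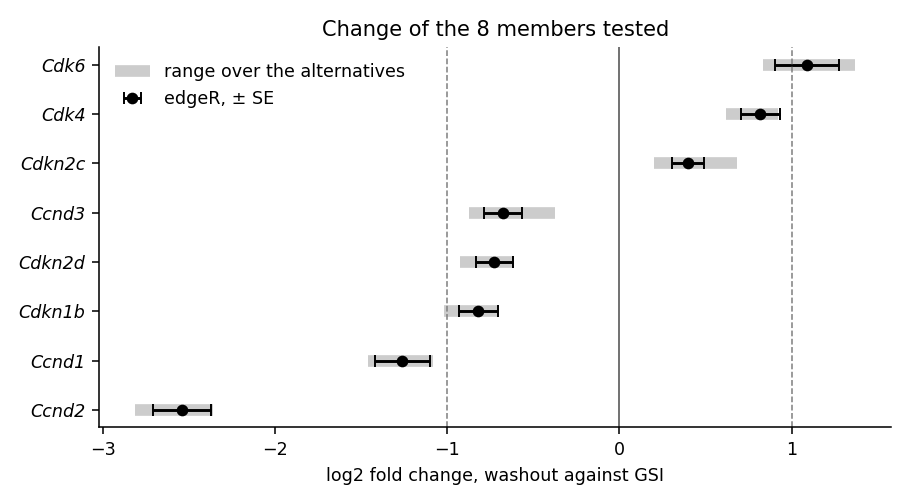
Log2 fold change of the 8 genes tested, washout against GSI, with black points at the edgeR estimate, bars of 1 SE, grey bands over the range of the 15 alternative analyses and dashed lines at a log2 fold change of 1 in either direction. No band crosses 0, and the band of Cdk6 reaches from 0.83 to 1.37 across the threshold.

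The genes that act after cyclin D-CDK4/6 were mostly higher upon washout. Of 13 pocket proteins and E2F factors, 9 were higher and 2 lower by the adjusted p-value (27% and 25.4% of all genes), with a median log2 fold change of 0.85. By both thresholds 3 were higher and 1 lower (7.74% and 11.7% of all genes). Tfdp1, the dimer partner of E2F factors, rose from 97.7 and 117 CPM to 277 and 242 CPM, with a log2 fold change of 1.27 (SE 0.13). E2f6, a repressor of the family, and E2f1, an activator, rose with log2 fold changes of 1.10 (SE 0.16) and 1.01 (SE 0.17). Rbl2, which encodes the pocket protein p130 of resting cells, fell from 122 and 117 CPM to 62.1 and 54.2 CPM, with a log2 fold change of -1.04 (SE 0.10). Apart from Tfdp1 these lay close to the fold threshold. With total count scaling E2f6 and E2f1 stood at 0.90 and 0.81, so that 1 gene was higher by both thresholds, and without GSI replicate 1 they stood at 0.93 and 0.80. E2f1 was at 0.91 without washout replicate 1, and Rbl2 at -0.94 without washout replicate 2. The count higher by both thresholds was 2 to 5 on leaving out a library, with 2 without GSI replicate 1 or washout replicate 1 and 5 without GSI replicate 2, and the count lower was 0 without washout replicate 2 and 2 without washout replicate 1.

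Of the 8 tested genes of the cyclin E, cyclin A and CDK2 step, 5 were higher and 0 lower by the adjusted p-value (27% and 25.4% of all genes), and 3 were higher by both thresholds (7.74% of all genes). Ccne2, which encodes cyclin E2, rose from 42.5 and 41.9 CPM to 143 and 92.7 CPM, with a log2 fold change of 1.49 (SE 0.20). Cdc25a, a phosphatase that activates CDK2, and Ccna2, which encodes cyclin A2, had log2 fold changes of 1.17 (SE 0.11) and 1.02 (SE 0.11). The changes of Ccne1 and Cdk2 were smaller, with log2 fold changes of 0.54 (SE 0.14, edgeR adjusted p = 0.0173) and 0.39 (SE 0.12, edgeR adjusted p = 0.0307). Both lost the call with total count scaling, at adjusted p-values of 0.0724 and 0.187, and without GSI replicate 1, at 0.116 and 0.195. Cdk2 also lost it without washout replicate 2, at an adjusted p-value of 0.0801. With total count scaling, Cdc25a and Ccna2 stood at log2 fold changes of 0.97 and 0.82, which left 1 gene higher by both thresholds and 3 by the adjusted p-value. Without washout replicate 1, Ccna2 stood at 0.93, which left 2 by both, and without GSI replicate 1, 3 genes were higher by the adjusted p-value.

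All 6 subunits of the MCM helicase, which opens the DNA for replication and is a target of E2F, rose past both thresholds (7.74% of all genes), with log2 fold changes of 1.37 to 1.90. Mcm5 was at 175 and 244 CPM in GSI and at 739 and 822 CPM in washout. Mcm3, Mcm2 and Mcm4 had log2 fold changes of 1.65, 1.61 and 1.58. Thus the D cyclin transcripts were lower in the same libraries in which the replication genes were higher.

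Of 15 genes that control the turnover of D cyclins and p27, 5 were higher and 3 lower by the adjusted p-value, shares near the 27% and 25.4% of all genes, with a median log2 fold change of 0.02. Without GSI replicate 2 these counts were 3 and 1, and with total count scaling 3 and 5. Skp2, the F-box protein that marks p27 for degradation, rose from 40.7 and 53.2 CPM to 120 and 116 CPM, with a log2 fold change of 1.34 (SE 0.14). Cks1b, its cofactor, followed with 0.96 (SE 0.09), and Ubac1, a subunit of another ligase for p27, with 0.59 (SE 0.09). Rnf123, the other gene of that ligase in the list, was lower, with a log2 fold change of -0.44 (SE 0.10, edgeR adjusted p = 0.0115). Dyrk1b, a kinase of resting cells that phosphorylates p27 and cyclin D1, fell from 59.4 and 65.3 CPM to 11.0 and 14.1 CPM, with a log2 fold change of -2.33 (SE 0.15).

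Of 15 known regulators of the 10 genes, 4 were higher and 5 lower by the adjusted p-value, shares again near the 27% and 25.4% of all genes, with a median log2 fold change of -0.02. With total count scaling 2 were higher and 6 lower, and without GSI replicate 1 there were 3 of each. Foxo3, a factor that activates Cdkn1b and other genes of resting cells, fell from 254 and 271 CPM to 99.5 and 128 CPM, with a log2 fold change of -1.21 (SE 0.14). Myc, which is known to activate Cdk4 and Ccnd2 and to repress Cdkn1a, rose from 157 and 152 CPM to 283 and 334 CPM. Its log2 fold change was 0.997 (SE 0.11, edgeR adjusted p = 0.00103) and fell just short of the fold threshold. Bmi1, a Polycomb protein known for silencing Cdkn2a, stood at 47.5 and 31.7 CPM in GSI and at 107 and 58.1 CPM in washout, with a log2 fold change of 1.06 (SE 0.31, edgeR adjusted p = 0.0297). This call was lost with total count scaling, without GSI replicate 2 and without washout replicate 1. Eed, also of the Polycomb group, rose with 0.90 (SE 0.10).

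Of 8 Notch targets, 7 were higher by both thresholds (7.74% of all genes), with a median log2 fold change of 1.90. This list was chosen with earlier results of these data known, so it is no independent check of the treatment. Hey1 stood at 16.2 and 18.1 CPM in GSI and at 180 and 200 CPM in washout, and rose with a log2 fold change of 3.47 (SE 0.12). Dtx1, Il2ra and Ptcra had log2 fold changes of 3.20, 3.19 and 2.37, and Hes1, Nrarp and Notch1 had 1.42, 1.31 and 1.14. Hes1 stood at 21.9 and 7.68 CPM in GSI and at 43.6 and 38.0 CPM in washout, and leaving out GSI replicate 1 gave a log2 fold change of 2.41, leaving out GSI replicate 2 one of 0.90. Notch1 fell below the fold threshold with total count scaling (0.94) and without GSI replicate 1 (0.98). Notch3 was at 340 and 448 CPM in GSI and at 403 and 465 CPM in washout, with a log2 fold change of 0.14 (edgeR adjusted p = 0.499). Its direction turned with total count scaling and without GSI replicate 1. It was called higher with the offset for GC content and length (log2 fold change 0.71, edgeR adjusted p = 0.00343), while Hes1 lost its call in DESeq2 (adjusted p = 0.0692).

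**Figure D4:**
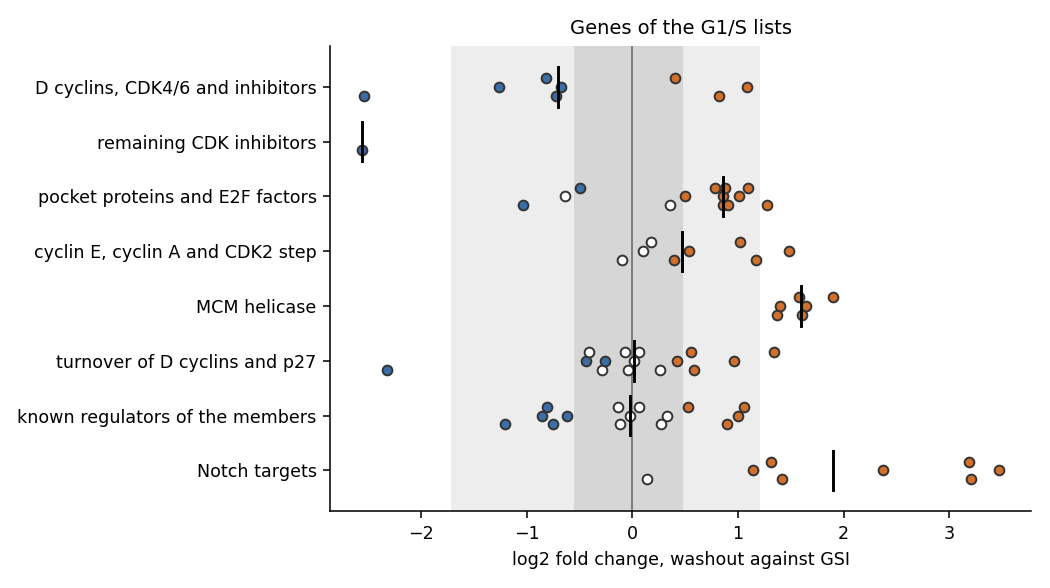
Log2 fold change of every tested gene of 8 lists, washout against GSI, with genes higher by the adjusted p-value in orange, lower in blue and not called in white, a black line at each list's median, and grey bands over the middle 50% and 90% of all 12266 genes tested. The medians of the MCM helicase and of the Notch targets lie at 1.60 and 1.90, and that of the D cyclins, CDK4/6 and their inhibitors at -0.70.

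Genes of the T-cell lineage were expressed in all libraries, among them Cd3e at 86.2 to 102 CPM, Lck and Rag1. The summed level of 16 T-cell progenitor markers was 7002 and 7520 CPM in GSI and 6623 and 6441 CPM in washout. 3 of them were higher and 8 lower by the adjusted p-value (27% and 25.4% of all genes). By both thresholds 1 was higher, Ptcra with a log2 fold change of 2.37, where 7.74% of all genes were. By the same rule 4 were lower, where 11.7% of all genes were: Gata3 (-1.67), Kit (-1.53), Cd8b1 (-1.29) and Cd4 (-1.16). The 6 B-cell markers in the table summed to under 1 CPM in every library, with Ms4a1, Pax5 and Ebf1 at 0. Of 8 myeloid markers 2 were tested, with 1 higher and 1 lower by the adjusted p-value (27% and 25.4% of all genes). Itgam fell from 48.7 and 37.9 CPM to 5.38 and 4.76 CPM, while Cd68 rose with a log2 fold change of 0.98. The summed level of these markers was 41.7 to 53.5 CPM in GSI and 12.7 to 13.1 CPM in washout, with Lyz2, Elane and Cebpa at 0. Of 8 erythroid and mast cell markers 3 were tested, and all 3 were lower by both thresholds (11.7% of all genes). This count was 2 in DESeq2 and with the offset for GC content and length. Cpa3 was at 176 and 77.4 CPM in GSI and at 9.34 and 2.23 CPM in washout. Klf1 rested on few reads, 45 and 19 in GSI and 22 and 7 in washout. The sum of the 8 markers was 87.8 to 188 CPM in GSI and 6.62 to 14.3 CPM in washout, and Hbb-b1, Hba-a1, Mcpt4, Tpsab1 and Fcer1a were at 0. Itgam, Cpa3, Gata1 and Klf1 thus moved in the same direction as the D cyclins, Cdkn1b and Cdkn2d, and their part in those results was not tested.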

How the data were processed

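RNA-Seq counts of Beko cells, 2 GSI and 2 washout libraries, were analysed. Reads had been trimmed and were aligned by the authors to mm9 with HISAT2 2.2.1 (version from the submitters' processing notes), with 1 alignment kept per read, and the authors deposited raw counts per gene, without normalization. The depth was 13716199 to 36364200 counts. Counts were tested with edgeR 4.0.16 in R 4.3.3 (filterByExpr, TMM, quasi-likelihood test, no covariate, Benjamini-Hochberg adjustment over 12266 genes), and the script was tested on simulated data. The SE was obtained as the log2 fold change over the root of F. Positions and exon lengths came from GENCODE vM1 on mm9, which matched 20641 of 24391 symbols, and promoter windows from RefSeq. The 10 members and all lists were chosen with earlier results of these data known. Named were the members, the remaining CDK inhibitors, the Notch targets, the 4 genes of each other pathway list with the largest change, Ccne1, Ccne2, Ccna2 and Cdk2, and the 3 genes most like the member with the largest rise or fall. Genes that overlap a member, marker genes and Rnf123 are named beside the results they touch. Alternatives were DESeq2 1.42.0, other scalings and filters, thinning to 13716199 counts, the replicate block, glmTreat, an offset for GC content and length (89.4% of genes tested) and leaving out each library.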

Additional observations from a re-analysis of the deposited data

How the results depend on the processing

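Over 15 alternatives, all 120 log2 fold changes of the 8 members tested kept their direction. Apart from glmTreat, which asks for a larger change and called Ccnd2 among the members, 109 of 112 kept their adjusted p call (the other 3 were those of Cdkn2c) and 108 kept their side of both thresholds, with 3 exceptions for Cdk6 and 1 for Cdkn1b. The member higher by both thresholds became 0 with total count scaling and with glmTreat, and ranged from 0 to 1 on leaving out a library (0 without GSI replicate 1 or washout replicate 2). The members lower by both thresholds went from 2 to 1 with glmTreat. With total count scaling, which moved the median of all genes by -0.20, Cdkn1b passed the fold threshold at a log2 fold change of -1.02. Across all genes, the 2387 past both thresholds became 809 with glmTreat, and 6435 past the adjusted p-value alone ranged from 4273 (without GSI replicate 1) to 6131 on leaving out a library. A fit that leaves out a library keeps 1 in that group and assumes that it varies like the other group. The log2 fold change of Notch3 turned to -0.059 with total count scaling and ranged from -0.047 (without GSI replicate 1) to 0.35 on leaving out a library, and no other gene named by the rule reversed. The sources used here do not say whether same-numbered replicates of the groups were prepared together. The correlation of same-numbered deviations from the group means was 0.497, with replicate 1 the deeper library in both. With the replicate block, 2557 genes passed both thresholds and 8459 the adjusted p-value alone, while the members called stayed at 1 higher and 2 lower by both thresholds and at 3 and 5 by the adjusted p-value. Depth limits Cdkn1c, Cdkn2a and Cdkn2b.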

Other observations

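The neighbors of Cdkn2a on mm9 chromosome 4 were looked up after its zero counts had been seen. Mtap, the next gene below Cdkn2a in the count table, was at 24.7 and 24.8 CPM in the GSI libraries and at 92.0 and 73.7 CPM in the washout libraries, and rose with a log2 fold change of 1.75 (SE 0.13, edgeR adjusted p = 0.00038). Klhl9, farther out on the same side, was at 211 and 200 CPM in GSI and at 246 and 229 CPM in washout, with a log2 fold change of 0.21 (edgeR adjusted p = 0.115). Several genes between Klhl9 and Mtap had fewer reads in washout. Among them, Gm13285 had 100 and 57 reads in GSI and 13 and 7 in washout. Gm13275 had 96 and 38 reads in GSI and 8 and 8 in washout. Gm13290 and Gm13289 had identical counts, 61 and 32 in GSI and 7 and 5 in washout. The entries of this stretch therefore need not be independent of each other. Others there, such as Ifna7, were at 0 in every library. Dmrta1, on the side of Cdkn2b, had 1 read in GSI replicate 1 and 0 reads elsewhere. Cdkn2a and Cdkn2b, which lie between Mtap and Dmrta1, together held 1 read in all 4 libraries.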
